A study of Homo sapiens with 9 samples.

Results

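The interferon regulatory factors (IRFs) were followed in Raji, an established human cell line derived from a Burkitt lymphoma, a tumour of germinal centre B cells. The 8 genes IRF1, IRF2, IRF3, IRF4, IRF5, IRF7, IRF8 and IRF9 were taken by name from the 15436 genes of the expression table. RNA came from cells given the solvent DMSO, from cells given hydroxyurea (HU) and from cells given thymidine with nocodazole (Thy-Noc), with 3 libraries in each group. HU blocks ribonucleotide reductase, which starves replication forks of nucleotides. Excess thymidine holds cells in S phase, and nocodazole disrupts microtubules and arrests cells in mitosis. The sources used here give no doses or times and do not say whether libraries came from separate cultures, so p-values measure the spread between these libraries, which may be technical. Raji is a single tumour line that carries Epstein-Barr virus, and no second line was analysed here.

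IRFs are transcription factors that share a DNA-binding domain with conserved tryptophans and bind interferon-stimulated response elements. IRF3 and IRF7, once phosphorylated, switch on interferon genes. Secreted interferon then acts through its receptors, and IRF9 binds DNA as a subunit of the complex ISGF3, which raises interferon-stimulated genes, IRF7 among them. IRF4 and IRF8 act mainly in B cells and other blood cells, where they bind DNA with partners such as the Ets factors PU.1 and SPIB.

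Deposited totals ran from 74940755 to 110485145 per library. Of the 11346 genes abundant enough to test, 1838 (16.2%) differed at least 10-fold between libraries of the same group after adding 0.5 CPM (counts scaled to library size, here with TMM factors that correct for composition). The B-cell markers MS4A1, CD79A, CD79B, CD22 and CR2 were listed. CD79A, a chain of the B-cell receptor complex, had 247.5 to 261 CPM in DMSO, 277 to 336 CPM in HU and 244 to 285 CPM in Thy-Noc. None of 5 T-cell and none of 4 red-cell markers was listed. Of 6 myeloid markers only LYZ and ITGAM were listed, with summed levels of 0.840 to 1.06 CPM in DMSO and 1.22 to 3.25 CPM in HU. Of 4 epithelial and fibroblast markers only COL1A1 was listed, at 1.3 to 3.88 CPM in DMSO and 8.09 to 13.7 CPM in HU, and of 4 NK-cell markers only NKG7, which stayed under 1 CPM. The part of these markers in the results was not tested. In bulk RNA, fewer cells of a type and less RNA per cell cannot be told apart.

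IRF8 had by far the highest counted level of the members in DMSO and Thy-Noc cells, and in HU cells IRF7 rose to a like level. The counts may leave out part of a gene's reads, so orders, ratios and shares between genes describe the counts and not total mRNA. Levels of different genes were compared as CPM per kb of the longest annotated coding transcript. In DMSO the order of means was IRF8 (56.3 ± 2.21 CPM per kb, SD, n = 3), IRF2 (12.7 ± 1.69), IRF7 (4.49 ± 2.90), IRF5 (1.86 ± 1.71), IRF9 (1.02 ± 0.511), IRF3 (0.589 ± 0.699), IRF1 (0.518 ± 0.373) and IRF4 (0.124 ± 0.0406). IRF8, IRF2 and IRF7 did not overlap one another between libraries, and IRF1 stood above IRF4, while the neighbours from IRF7 down to IRF1 overlapped. In Thy-Noc the order was the same apart from IRF3, which came last, and only IRF4 and IRF3 overlapped as neighbours. In HU, IRF8 (62.2 ± 5.53 CPM per kb) and IRF7 (59.96 ± 28.6) overlapped at the top, followed by IRF2 (18.4 ± 2.48), IRF5 (7.45 ± 1.22) and IRF9 (5.06 ± 2.02), of which the last pair overlapped. Dividing by all annotated exon bases instead gave the same order in DMSO and Thy-Noc, and put IRF7 (46.8 CPM per kb) above IRF8 (36.5 CPM per kb) in HU.

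**Figure D1:**
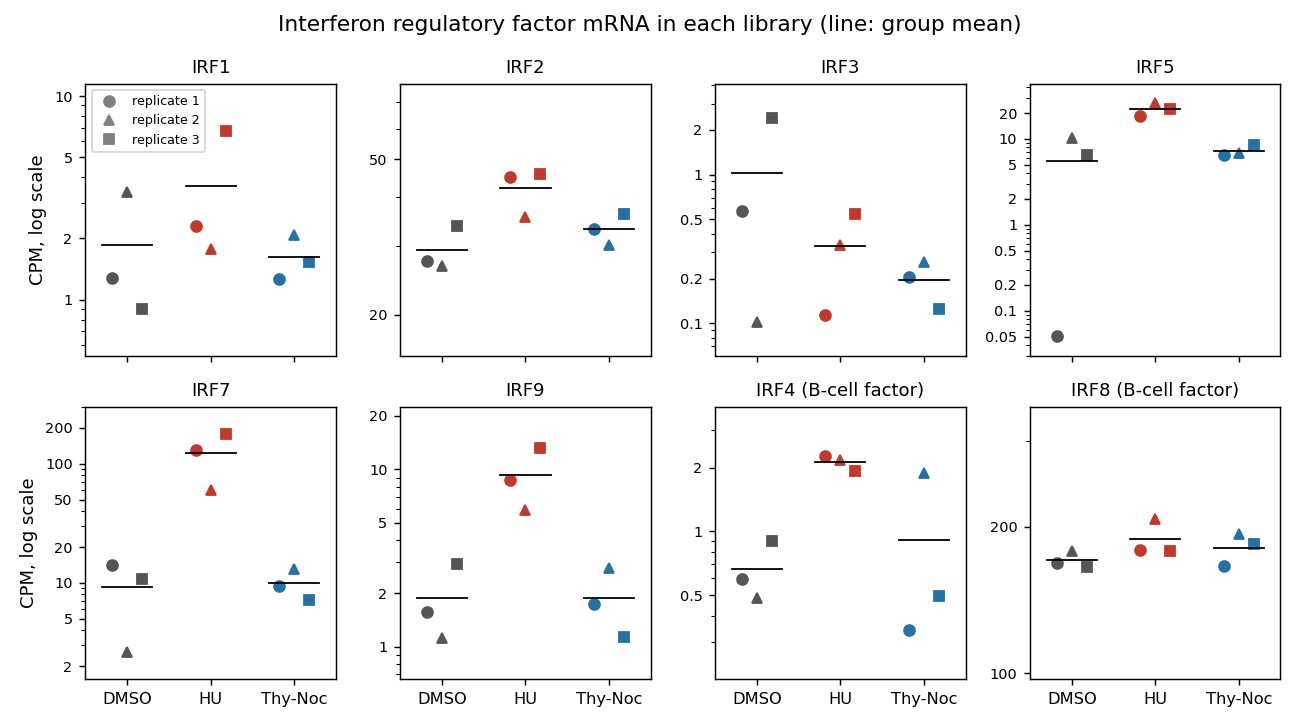
Level of each of the 8 IRF genes in each library, in CPM on a log axis whose range differs between panels. Points are libraries, with the marker shape giving the replicate number, and lines are group means of 3 libraries. IRF7 lies between 60.8 and 177 CPM in HU, above all other libraries, and IRF8 stays between 166 and 208 CPM in all 9.

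IRF7 was the only member called in HU against DMSO. The gene (ENSG00000185507) lies on the minus strand at chr11:612553-615999 in GRCh38. It had 14.2, 2.65 and 10.7 CPM in DMSO replicates 1, 2 and 3, and 131, 60.8 and 177 CPM in HU. In Thy-Noc it had 9.37, 13.2 and 7.23 CPM. Every HU library stood above every DMSO and Thy-Noc library, and HU replicate 2 was the lowest of its group. The rise from DMSO to HU was 13.4-fold (log2 fold change 3.74 ± 0.70, SE, 95% interval 2.09 to 5.39, adjusted p 0.0408 in edgeR's quasi-likelihood fit, with the Benjamini-Hochberg method over all genes). That made 1 call among the 7 members tested, where 2.0% of all tested genes were called higher, 1.56% lower and 3.56% in either direction. DESeq2, which called 2135 of the 11346 genes where edgeR called 404, called 4 members (IRF2, IRF4, IRF7 and IRF9). Of these, IRF4 was tested only through its HU libraries, so its call is no support for a difference.

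The size of the IRF7 difference held better than its call. Over 23 alternative settings the log2 fold change ran from 3.31 to 4.20, while the adjusted p passed in 12 of them and ran from 7.43e-07 to 0.121. When 1 library at a time was left out, the call held in 1 of 9 fits, the one without HU replicate 2 (edgeR adjusted p 0.0481). It ended without DMSO replicate 1 (0.0951), 2 (0.0794) or 3 (0.121), without HU replicate 1 (0.0979) or 3 (0.111), and without Thy-Noc replicate 1 (0.0605), 2 (0.0610) or 3 (0.0645).

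IRF9, the DNA-binding subunit of ISGF3, followed the same pattern at a lower level but missed the threshold. The gene (ENSG00000213928) lies on the plus strand at chr14:24161053-24166565. The DMSO libraries had 1.57, 1.12 and 2.93 CPM, the HU libraries 8.73, 5.91 and 13.3 CPM and the Thy-Noc libraries 1.74, 2.78 and 1.13 CPM. Again all HU libraries stood above the other 6, and HU replicate 2 was the lowest of the HU group. The difference from DMSO was 4.97-fold (log2 fold change 2.31 ± 0.53, SE, edgeR adjusted p 0.0599). IRF9 shares 48.4% of its exon bases with a readthrough gene on the same strand (ENSG00000259529), so reads could be split between them. That gene had 10.8, 12.5 and 11.6 CPM in DMSO and 20.2, 18.8 and 21.4 CPM in HU, above IRF9 in every library, with a log2 fold change of 0.79 ± 0.20 (edgeR adjusted p 0.0842).

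IRF5, which acts downstream of Toll-like receptors, was higher in HU in every library, but its DMSO values were erratic. The gene (ENSG00000128604) lies on the plus strand at chr7:128937612-128950035 and has an annotated pseudogene, IRF5P1. The DMSO libraries had 0.0507, 10.1 and 6.47 CPM, the HU libraries 18.7, 25.9 and 22.1 CPM and the Thy-Noc libraries 6.52, 6.79 and 8.54 CPM. DMSO replicate 1 rested on a count of 4, against 1086 in DMSO replicate 2. The log2 fold change of HU against DMSO was 2.0 ± 1.26 with an edgeR adjusted p of 0.424. Without DMSO replicate 1 it was 1.42 with an edgeR adjusted p of 0.0975. HU replicate 2, the lowest HU library for IRF7 and IRF9, was the highest for IRF5.

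IRF1 and IRF2, an activator and an antagonist at shared sites, differed less. IRF2 (ENSG00000168310, minus strand, chr4:184387713-184474580) had 27.4, 26.7 and 33.8 CPM in DMSO and 45.2, 35.7 and 46.0 CPM in HU. The HU libraries lay above the DMSO ones, and replicate 2 was again the lowest in HU. The log2 fold change was 0.53 ± 0.16 (edgeR adjusted p 0.120, and 0.0120 by DESeq2). IRF1 (ENSG00000125347, minus strand, chr5:132481609-132490798) had 1.28, 3.38 and 0.903 CPM in DMSO and 2.32, 1.78 and 6.77 CPM in HU, which overlapped. Its log2 fold change of 0.96 ± 0.67 (edgeR adjusted p 0.472) fell to 0.15 (adjusted p 0.945) without HU replicate 3, the library at 6.77 CPM, and reached 1.74 (adjusted p 0.270) without DMSO replicate 2. The antisense gene IRF1-AS1, which covers 22.0% of the IRF1 exon bases, had more CPM than IRF1 in every library, from 7.76 to 13.0. Whether the counting used strand is not given here, and without strand the reads of the pair cannot be told apart.

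IRF3, the constitutively made factor that starts interferon production, was too low in this table to be tested. The gene (ENSG00000126456) lies on the minus strand at chr19:49659569-49665875, has 31 annotated transcripts and shares 19.3% of its exon bases with BCL2L12 on the other strand. The DMSO libraries had 0.571, 0.103 and 2.40 CPM, the HU libraries 0.114, 0.337 and 0.544 CPM and the Thy-Noc libraries 0.205, 0.260 and 0.124 CPM, and only DMSO replicate 3 reached 1 CPM. With no filter its log2 fold change was −1.59 ± 1.03 for HU against DMSO and −2.37 ± 1.07 for Thy-Noc against DMSO (edgeR adjusted p 0.482 and 0.9998). Since the table may leave out part of a gene's reads, these counts set no bound on total IRF3 mRNA.

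The B-cell factor IRF8 was the steadiest member. The gene (ENSG00000140968) lies on the plus strand at chr16:85898803-85922609. The DMSO libraries had 168, 178 and 166 CPM, the HU libraries 180, 208 and 178 CPM and the Thy-Noc libraries 166, 194 and 184 CPM. Its highest library was 1.25 times its lowest over all 9, and the groups overlapped. The log2 fold change was 0.14 ± 0.10 for HU against DMSO (95% interval −0.09 to 0.37, that is 0.941-fold to 1.29-fold) and 0.09 ± 0.10 for Thy-Noc against DMSO (−0.14 to 0.32), with edgeR adjusted p of 0.469 and 0.9998.

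IRF4, which drives plasma cell differentiation and class switching, was the other B-cell factor and stood near the detection floor. The gene (ENSG00000137265) lies on the plus strand at chr6:391739-411447. The DMSO libraries had 0.596, 0.485 and 0.903 CPM, the HU libraries 2.28, 2.18 and 1.92 CPM and the Thy-Noc libraries 0.342, 1.88 and 0.497 CPM. The HU libraries lay above all others, though Thy-Noc replicate 2 came close to the lowest of them. IRF4 reached 1 CPM in the 3 HU libraries and in only 1 of the other 6, so it was tested only because it was higher in HU, and a difference was built into its being tested. The log2 fold change was 1.68 ± 0.64 (edgeR adjusted p 0.190, and 0.0482 by DESeq2). IRF8 exceeded IRF4 by 323 to 646 times per kb in DMSO and by 139 to 168 times in HU.

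Setting the interferon members beside the B-cell factors, the summed level of IRF1, IRF2, IRF3, IRF5, IRF7 and IRF9 was 17.9 to 25.3 CPM per kb in DMSO, 57.8 to 123 in HU and 22.6 to 24.0 in Thy-Noc. The sum of IRF4 and IRF8 was 54.8 to 58.9 CPM per kb in DMSO, 59.1 to 69.0 in HU and 54.8 to 64.2 in Thy-Noc. IRF7 took 9.13%, 1.68% and 6.53% of the summed level of all 8 members in DMSO replicates 1, 2 and 3, and 41.2%, 23.4% and 47.4% in HU. IRF8 took 73.0%, 76.6% and 68.2% in DMSO, and 38.3%, 54.1% and 32.2% in HU. The ratio of IRF8 to IRF7 per kb went from 8.0, 45.5 and 10.5 in DMSO to 0.929, 2.31 and 0.679 in HU, and was 12.0, 9.94 and 17.3 in Thy-Noc. HU libraries therefore stood apart from both other groups in the makeup of the family as counted here, with replicate 2 the nearest to them. By class, 4 of the 5 interferon members tested (IRF2, IRF5, IRF7 and IRF9) had HU libraries that all exceeded the DMSO ones, where 15.5% of all tested genes did so (15.3% were lower without overlap, 30.7% in either direction).

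**Figure D2:**
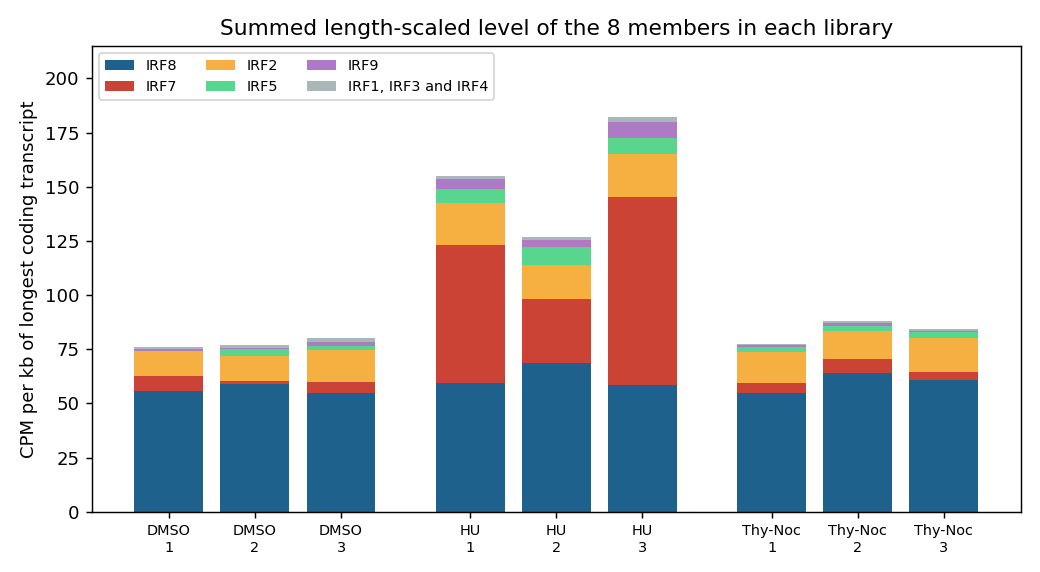
Stacked bars of the length-scaled level (CPM per kb of the longest coding transcript) of the 8 IRF genes in each of the 9 libraries, labelled by group and replicate number, with IRF1, IRF3 and IRF4 summed in 1 segment. The IRF8 segment has a similar height throughout, and the IRF7 segment grows from at most 6.94 CPM per kb outside HU to between 29.7 and 86.5 CPM per kb in HU.

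No member was called in Thy-Noc against DMSO, a comparison in which 0.0353% of all tested genes were called (0.0264% higher and 0.00881% lower). By edgeR none of the 7 reached 0.05 before adjustment, where 510 of the 11346 genes did. DESeq2 made no call among the members either, where it called 179 genes in all. In all 8 members the Thy-Noc and DMSO libraries overlapped, while 9.97% of all tested genes did not overlap (5.18% higher and 4.79% lower). The log2 fold changes of the 7 ran from −0.19 ± 0.66 for IRF1 to 0.46 ± 0.63 for IRF4, with a value of 0.11 ± 0.63 for IRF7 and 0.01 ± 0.50 for IRF9. Intervals were wide for the variable members, as for IRF7 at 0.386-fold to 3.02-fold and IRF5 at 0.181-fold to 9.49-fold. The IRF2 interval was 0.874-fold to 1.47-fold.

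HU was then set directly against Thy-Noc, a comparison that shares its HU libraries with the one against DMSO and is no independent support for it. No member passed by edgeR, where 1.75% of all tested genes were called (0.696% higher and 1.06% lower). For 2 of the 7 tested members the edgeR p before adjustment was under 0.05, as it was for 2203 of all 11346 genes. DESeq2 also called 2 members, where it called 1826 genes in all. IRF7 was 12.4-fold higher in HU (log2 fold change 3.63 ± 0.70, SE, edgeR adjusted p 0.0547). IRF9 was 4.95-fold higher (2.31 ± 0.53, edgeR adjusted p 0.0784). In IRF5, IRF7 and IRF9, 3 of the 5 interferon members tested, all HU libraries exceeded all Thy-Noc libraries, against 12.9% of all tested genes (12.0% were lower without overlap, 24.9% in either direction). IRF4 did so too, but is left out of this count because it was tested only through its HU libraries. IRF2 overlapped, with a log2 fold change of 0.35 ± 0.16, and IRF8 differed by 0.06 ± 0.10 (95% interval −0.17 to 0.29). A difference between the effects of the 2 treatments on IRF7 or IRF9 was thus not established at the threshold.

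**Figure D3:**
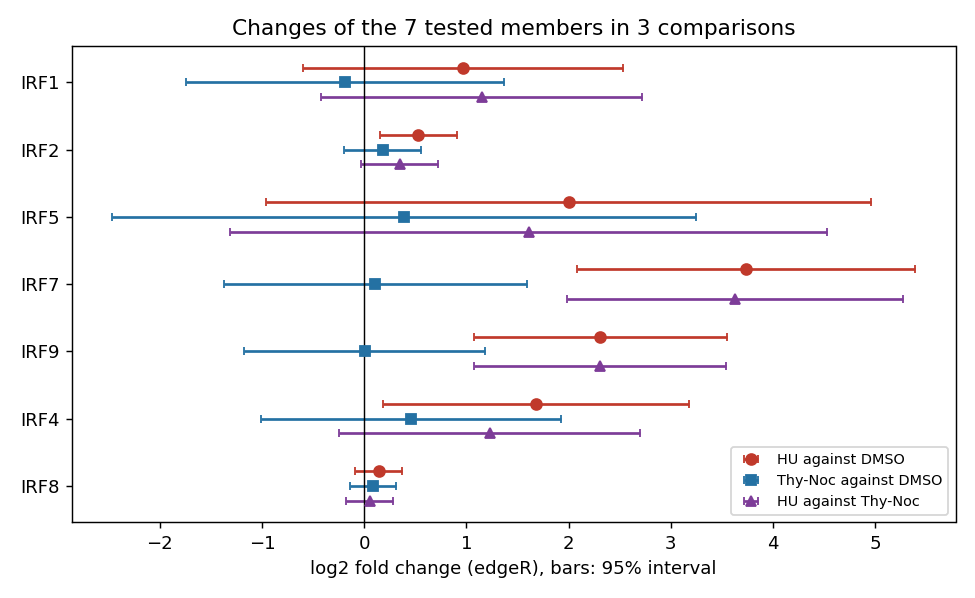
Log2 fold change (edgeR) of the 7 tested IRF genes on the horizontal axis, with 95% intervals as bars, for HU against DMSO (circles), Thy-Noc against DMSO (squares) and HU against Thy-Noc (triangles). IRF7 and IRF9 lie well to the right in both comparisons with HU, at 3.74 and 2.31 against DMSO, and IRF8 has narrow intervals around 0 in all 3.

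Promoter sequence was compared for the members in RefSeq's GRCh38.p14 windows of 250 bases before to 50 bases after a start. These windows were found for 5 of the 8 members (IRF1, IRF4, IRF5, IRF8 and IRF9), 9 windows in all. The core of the interferon-stimulated response element, searched on both strands as 2 GAAA repeats with any 2 bases between them, was in none of the 9 and in 3.57% of the 35116 windows of all genes. The gamma-activated site of STAT dimers, searched as TTCNNNGAA (the same on both strands), was in the windows of IRF1 and IRF9 and in 7.66% of all windows. A version of the response element with 1 base between the repeats, GAAANGAAA on both strands, which was chosen after the sequences were seen, was in 1 window each of IRF5 and IRF8 and in 3.12% of all windows. The 250 upstream bases of these 4 windows are given on the gene's strand, with the match in capitals, because they set 2 members with higher HU libraries (IRF9, IRF5) beside 2 whose HU and DMSO libraries overlapped (IRF1, IRF8).
IRF9, plus strand, chr14:24161015-24161264: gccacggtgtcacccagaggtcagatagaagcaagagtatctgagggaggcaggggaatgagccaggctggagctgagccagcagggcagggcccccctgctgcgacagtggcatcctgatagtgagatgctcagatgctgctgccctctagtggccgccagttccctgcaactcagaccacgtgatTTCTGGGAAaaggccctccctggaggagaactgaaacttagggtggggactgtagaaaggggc
IRF1, minus strand, chr5:132490774-132491023: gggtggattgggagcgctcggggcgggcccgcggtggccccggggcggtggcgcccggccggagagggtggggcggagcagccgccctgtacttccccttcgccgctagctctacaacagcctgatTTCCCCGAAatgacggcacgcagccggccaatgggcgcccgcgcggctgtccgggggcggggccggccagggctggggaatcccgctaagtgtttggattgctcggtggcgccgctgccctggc
IRF5, plus strand, chr7:128940420-128940669: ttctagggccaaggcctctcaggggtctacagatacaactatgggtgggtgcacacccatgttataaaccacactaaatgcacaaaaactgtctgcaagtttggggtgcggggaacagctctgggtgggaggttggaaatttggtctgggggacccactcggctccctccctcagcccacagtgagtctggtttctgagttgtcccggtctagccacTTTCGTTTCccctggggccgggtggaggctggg
IRF8, plus strand, chr16:85902580-85902829: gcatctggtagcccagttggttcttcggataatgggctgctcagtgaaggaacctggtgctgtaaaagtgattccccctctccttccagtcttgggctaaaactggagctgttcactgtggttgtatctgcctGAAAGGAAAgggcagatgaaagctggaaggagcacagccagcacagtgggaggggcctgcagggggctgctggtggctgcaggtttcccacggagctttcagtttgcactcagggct
The match began 63 bases before the start in IRF9, 124 in IRF1, 33 in IRF5 and 117 in IRF8. A looser core, AANNGAAA on both strands, was also not among the patterns planned at first. It was in windows of IRF5, IRF8 and IRF9 and in 22.8% of all windows, and overlaps the capitals in IRF5 and IRF8. All 4 windows shown belong to starts inside the gene coordinates given above, with that of IRF1 close to the edge of its gene. A match is a description of the letters and not of binding.

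Among the genes around the family, interferon-stimulated genes had the largest shift in HU. Of 28 tested, 26 had a positive log2 fold change against DMSO, with a median of 1.98 beside 0.02 over all genes. TRIM22, among the 26, had 0.308 to 1.10 CPM outside HU and 1.91 to 3.04 CPM in HU. It was tested only through its HU libraries, so its positive sign was built in. Of the 28, 4 were called higher and 0 lower (2.0% of all genes were called higher). The 4 were IFI6 (log2 fold change 4.94 ± 0.85), SAMD9L (3.35 ± 0.46), IFIT5 (2.32 ± 0.46) and EPSTI1 (2.21 ± 0.21), with edgeR adjusted p from 0.00884 to 0.0455. EPSTI1, an interferon-induced protein of immune cells, had 12.5, 8.87 and 10.6 CPM in DMSO and 49.95, 39.1 and 59.5 CPM in HU. DESeq2 called 17 of 26 with an adjusted p, where it called 2135 of the 11346 genes given to it. With edgeR on the 6 HU and DMSO libraries only, 1 was called. Without HU replicate 2, the HU library lowest for IRF7 and IRF9, 8 were called. Without DMSO replicate 3 the count was 0, and without DMSO replicate 1 or 2 or HU replicate 3 it was 1. It was 2 without HU replicate 1, Thy-Noc replicate 2 or Thy-Noc replicate 3. Against Thy-Noc, EPSTI1 (1.72) and SAMD9L (2.97) were called. With 1 library left out that count was 5 without HU replicate 2, 1 without any of the DMSO libraries and 0 without any of the others. In Thy-Noc against DMSO none was called, with a median of 0.12.

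Among the receptors and kinases that carry the interferon signal there was 1 call, where 2.0% of all genes were called higher. Of 12 tested genes for interferon receptors, JAK kinases and STATs, IFNGR1, the ligand-binding chain of the interferon gamma receptor, was the only call in HU against DMSO. It had 131, 139 and 169 CPM in DMSO and 370, 235 and 312 CPM in HU (log2 fold change 1.06 ± 0.18, edgeR adjusted p 0.0310). Its partner IFNGR2 had a log2 fold change of 0.72 ± 0.15 and missed the threshold (adjusted p 0.0526 by the same test). The list's median was 0.76. STAT2, a partner of IRF9, was erratic, with 114, 84.8 and 77.0 CPM in the DMSO libraries and 125, 8.45 and 61.0 CPM in the HU libraries. Its log2 fold change was −0.50 ± 0.87.

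Upstream of IRF3, IRF5 and IRF7, SLC15A4, an endolysosomal transporter that carries the IRF5 adaptor TASL, was the only call among 15 tested adaptors and kinases, beside 2.0% of all genes called higher. It had 34.2, 36.9 and 33.5 CPM in DMSO and 68.9, 90.5 and 62.3 CPM in HU (log2 fold change 1.08 ± 0.20, edgeR adjusted p 0.0399). TASL had a log2 fold change of 0.50 ± 0.32 and IKBKE, a kinase of IRF3 and IRF7, of −0.11 ± 0.11, and neither passed. The median of this list, 0.02, equalled that of all genes. Among 13 tested negative regulators and IRF-binding proteins there was also 1 call. SOCS1, an inhibitor of JAK kinases, rose from 4.02, 3.44 and 5.89 CPM in DMSO to 11.6, 12.8 and 11.8 CPM in HU (1.44 ± 0.23, edgeR adjusted p 0.0277). It was also called against Thy-Noc (1.28, adjusted p 0.0485 by the same test). The corepressors IRF2BP1, IRF2BP2 and IRF2BPL had log2 fold changes of −0.37 ± 0.16, 0.33 ± 0.15 and 0.18 ± 0.17 and did not pass. None of the 8 interferon ligand genes looked for was listed, so none could be tested.

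TAP1, the peptide transporter of class I presentation, was the only call among 7 class I genes known as IRF1 targets, again beside 2.0% of all genes called higher. It had 203, 204 and 208 CPM in DMSO and 482, 345 and 472 CPM in HU, where replicate 2 was again the lowest (log2 fold change 1.08 ± 0.14, edgeR adjusted p 0.0180). PSMB8 and PSMB10, subunits of the immunoproteasome, had 0.17 ± 0.16 and 0.10 ± 0.11 and did not pass.

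Partners that IRF4 and IRF8 bind DNA with were called higher in 3 of 8 tested, where 2.0% of all genes were (0.696% against Thy-Noc). SPIB had 99.9, 94.3 and 84.8 CPM in DMSO and 318, 242 and 231 CPM in HU (log2 fold change 1.50 ± 0.17). For the AP-1 subunits JUNB and JUND the log2 fold changes were 1.41 ± 0.10 and 1.0 ± 0.13. Their edgeR adjusted p values lay between 0.00329 and 0.0218, and all 3 genes were also called against Thy-Noc. SPI1, which encodes PU.1, had 108, 104 and 103 CPM in DMSO and 94.2, 104 and 103 CPM in HU (−0.06 ± 0.13). Of the 8 partners tested, 5 had a positive log2 fold change. TCF3 was lower in HU and did not pass (−1.15 ± 0.55, edgeR adjusted p 0.291). BATF, at 0.286 to 0.924 CPM, was too low to be tested. The calls were thus on SPIB, JUNB and JUND and not on SPI1, though the difference between these genes was not tested. Of 13 tested B-cell and plasma cell regulators, BACH2, a repressor of plasma cell differentiation, was the only call, beside 1.56% of all genes called lower, and fell by 1.40 ± 0.25 on the log2 scale (edgeR adjusted p 0.0349). PRDM1, a target of IRF4 in plasma cells, had 0.88 ± 0.61 and did not pass. Its levels were 1.75, 0.551 and 0.763 CPM in DMSO and 2.54, 1.63 and 1.45 CPM in HU. PRDM1 was tested only through its HU libraries, which favours a positive value. The B-cell marker CD22 had a log2 fold change of 1.55 ± 0.69 (edgeR adjusted p 0.255).

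**Figure D4:**
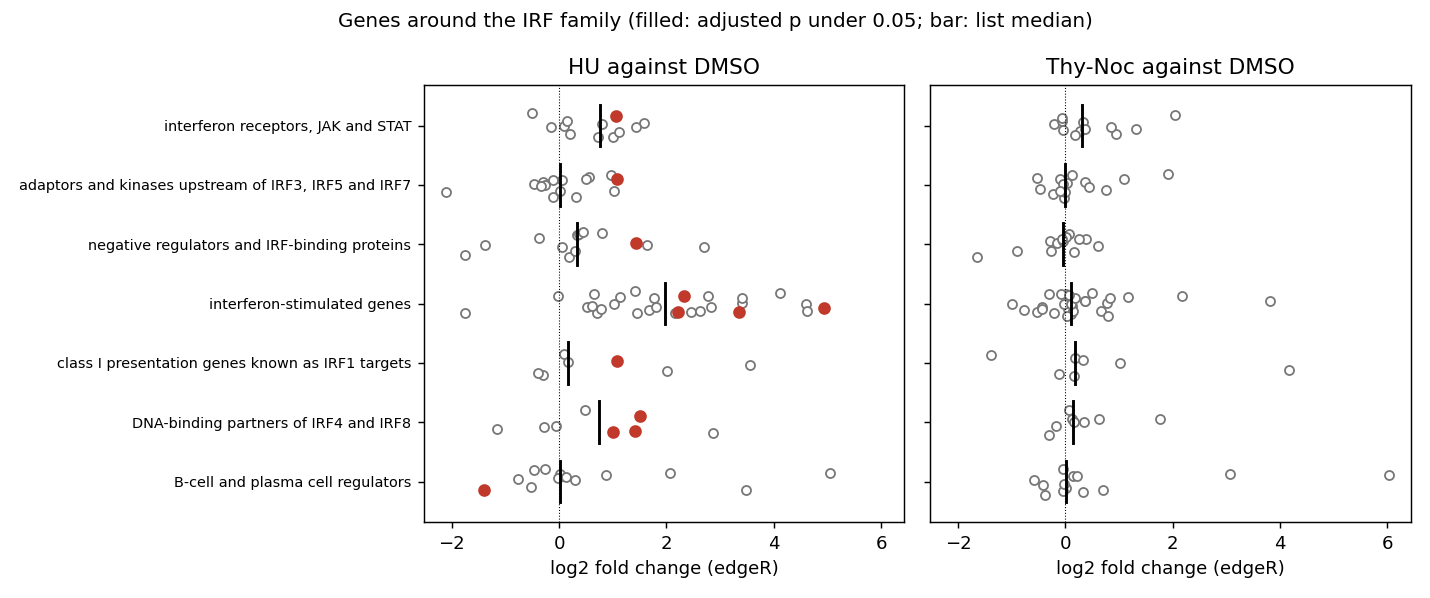
Log2 fold change (edgeR) of the tested genes of 7 lists around the IRF family, HU against DMSO on the left and Thy-Noc against DMSO on the right. Each point is a gene, filled where its adjusted p was under 0.05, the bar is the list median, and the vertical scatter within a list has no meaning. Interferon-stimulated genes centre on 1.98 on the left and 0.12 on the right.

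The single calls depended on which libraries were used. With the 6 HU and DMSO libraries only, the calls of IFNGR1, SLC15A4, SOCS1, TAP1 and BACH2 all ended, and the DNA-binding partners had 1 call in place of 3. With 1 library left out, the receptor, JAK and STAT list kept a call only without HU replicate 2 or Thy-Noc replicate 1, and the adaptor and kinase list only without DMSO replicate 2 or Thy-Noc replicate 1 or 2. The negative regulators kept one without any of the Thy-Noc libraries and lost it without any DMSO or HU library. The class I genes did likewise, but kept theirs without HU replicate 2. The B-cell and plasma cell regulators kept one only without HU replicate 2 or Thy-Noc replicate 1. Calls among the DNA-binding partners went from 3 to 1 without any single DMSO library. Against Thy-Noc, the partners had 1 call with any library left out except Thy-Noc replicate 3, and 0 without that one, and the SOCS1 call ended with any library left out.

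In Thy-Noc against DMSO none of these lists had a call. The largest changes in them belonged to genes with erratic replicates, among them MEF2C (6.02 ± 3.08), TAP2 (4.17 ± 2.0), IFITM1 (3.81 ± 2.07), IFNAR1 (2.04 ± 1.06), IRAK1 (1.92 ± 1.30), JUN (1.76 ± 1.81) and PTPN6 (−1.65 ± 1.52), all with an edgeR adjusted p of 0.9998.

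The genes whose levels followed each member most closely over the 9 libraries were found by Pearson's r of log2(CPM + 0.5), as a description over libraries that share 3 group means. IRF7 was closest to HELZ2 (r = 0.992), ABTB2 (0.989) and CHRNA6 (0.978). HELZ2 averaged 2.46 CPM in DMSO, 15.8 CPM in HU and 3.38 CPM in Thy-Noc. IRF9 was closest to LINC02541 (0.979), WHAMM (0.976) and CSGALNACT2 (0.975), and IRF2 to HLA-B (0.969), DOK4 (0.966) and GALNT6 (0.964). The nearest genes to IRF5 were LTB (0.976), COPE (0.974) and ENSG00000268362 (0.948), and those to IRF4 were ELFN1 (0.980), ZNF585B (0.963) and STARD4 (0.962). IRF1 was nearest to PLCG1 (0.957), ZNF93 (0.928) and RAB6A (0.916), and IRF8 to NCF1C (0.962), ZDHHC24 (0.956) and RPL17 (0.943). Within the family, IRF7 and IRF9 were the closest pair (r = 0.959), while IRF8 had r of 0.276 with IRF7 and 0.274 with IRF9.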

How the data were processed

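RNA was sequenced from 9 Raji libraries, 3 per group, made with a stranded kit for mRNA, per the labels. FastQC, Trim Galore, STAR and DESeq2, and the build GRCh38, stand in the submitters' processing notes with no role or version. The authors deposited 1 table whose name says CPM but whose values are whole numbers with differing totals, and these were taken for rounded estimated counts, or expected counts. No 0 occurs, and 274 genes stand at 1 in all 9 libraries. The counting tool, its annotation and its use of strand were not given in the sources used here. Replicates of many genes swing widely, so the table may leave out part of a gene's reads.

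Of 15436 gene identifiers, 15393 matched a table of symbols and 15272 GENCODE release 29, which gave lengths and coordinates. The 11346 genes that reached 1 CPM in 3 or more libraries were fitted in R 4.3.3 with edgeR 4.0.16 (TMM, quasi-likelihood, the 3 groups as the only term, 6 residual degrees of freedom), with 2-sided tests and Benjamini-Hochberg adjustment over all genes at 0.05. Standard errors came from the fold change and F statistic. A median count of 1187 per tested gene makes replicate spread, not depth, the main limit. Chi-square per degree of freedom between replicates was 930 to 1230, so replicates differed by more than counting noise. This cannot show whether they came from separate cultures. The steps were tested on simulated counts. Alternatives were other scalings, filters and dispersions, DESeq2 1.42.0, limma 3.58.1, a replicate block, 6 libraries only, each library left out and, chosen after seeing the data, no unsteady genes (those with at least a 10-fold range within a group).

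Members and gene lists were chosen with earlier results of these data known. Named genes are all members, up to 4 called genes per list, comparison and direction with a mean of at least 2 CPM (or the largest change, as a value, where none was called), and the 3 genes most like each member. The text leaves out some of these, and also gives pathway genes chosen for their role after their values were seen. Some genes are not reported here.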

Additional observations from a re-analysis of the deposited data

How the results depend on the processing

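Of the single-member results under alternative settings, 433 kept their direction and their side of the threshold, 19 passed it newly, 11 lost it and 11 reversed. The cause was not tested. The reversals were all in differences whose main log2 fold change was smaller than its SE, as for IRF4 in Thy-Noc against DMSO (0.46 ± 0.63). For Thy-Noc against DMSO, IRF1 turned to 0.0082 with limma at a pseudocount of 0.1 and IRF9 to −0.0165 with total-count scaling. Leaving out 1 library gave −0.51 to 0.58 for IRF1 (positive without DMSO replicate 2), −0.65 to 0.85 for IRF4 (negative without Thy-Noc replicate 2), −0.19 to 1.16 for IRF5 (negative without DMSO replicate 1), −0.33 to 0.57 for IRF7 (negative without DMSO replicate 2, and −0.15 without Thy-Noc replicate 2) and −0.38 to 0.48 for IRF9 (−0.10 without DMSO replicate 1, −0.26 without DMSO replicate 2, lowest without Thy-Noc replicate 2). For HU against Thy-Noc, IRF8 ranged from −0.0159, without HU replicate 2, to 0.11.

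Members called in HU against DMSO (1) became 2 with limma at each pseudocount, with quantile normalization and without unsteady genes. They became 4 with DESeq2, among them IRF4, which was tested only through its HU libraries. With no filter or with 6 libraries only they became 0. In HU against Thy-Noc (0) they became 1 with limma at pseudocounts of 0.1 and 0.5, with quantile normalization or with a minimum of 5 CPM, and 2 with limma at a pseudocount of 1, with DESeq2 or without unsteady genes. Leaving out 1 library gave 0 to 1 members in HU against DMSO and 0 to 1 in HU against Thy-Noc. Genes called in HU against DMSO (404) became 220 with no filter, 2135 with DESeq2, 38 with 6 libraries only and 721 without unsteady genes, and 21 to 318 with 1 library left out. In HU against Thy-Noc (199) they became 64 with no filter, 1826 with DESeq2, 311, 326 and 346 with limma at pseudocounts of 0.1, 0.5 and 1, 313 with a minimum of 5 CPM, 124 without an intensity trend, 18 with 6 libraries only, 472 without unsteady genes, and 1 to 103 with 1 library left out. In Thy-Noc against DMSO (4) they became 179 with DESeq2, 7, 12 and 12 with limma at those pseudocounts, 11 with quantile normalization, and 5 to 13 with 1 library left out.

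Replicate numbers are shared between groups. Deviations of same-numbered libraries from their group means had small correlations (from −0.035 to 0.040), and those of differently numbered ones ran from −0.054 to 0.033. Between HU and Thy-Noc the same-numbered pairs had 0.029 to 0.040 and the others −0.033 to −0.006. With DMSO, same-numbered pairs had both signs, from −0.035 to 0.032. With replicates this variable, such values cannot show whether the numbers pair the libraries. With a replicate block, 0 members and 9 genes were called in HU against DMSO, 0 members and 0 genes in HU against Thy-Noc, and 0 members and 0 genes in Thy-Noc against DMSO. Among the gene lists in HU against DMSO, the block gave 1 call in the DNA-binding partners and 0 in each of the others, interferon-stimulated genes included. The IRF7 log2 fold change with the block was 3.82 (edgeR adjusted p 0.0884). IRF3, IRF4 and IRF1 had low levels. Counts in DMSO replicates 2 and 3 were 11 and 189 for IRF3, and 362 and 71 for IRF1. The part of depth in this spread was not tested. A minimum of 5 CPM left IRF1 and IRF4 untested, and leaving out unsteady genes left IRF5 untested.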
